A study of Mus musculus with 3 samples.

Results

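Transcripts of the proteasome genes were compared between Brpf1-deficient and wild-type mouse embryos at stage E8.75, on 3 Agilent 2-colour arrays. The set was chosen by name alone: every gene whose symbol is Psma, Psmb, Psmc, Psmd, Psme, Psmf or Psmg with a number, or Pomp. The RefSeq table names 49 such genes. Of these, 48 had a probe matched through its accession, and 46 were measured well enough to be tested, among 23554 genes and other transcripts tested in all. On each array the labels put the Brpf1-deficient RNA in Cy5 (red) and the wild-type RNA in Cy3 (green), as embryo pairs 1, 2 and 3. The labels name no Brpf1 allele, no strain, no treatment and no count of embryos per RNA. Each ratio is given on the log2 scale with Cy5 on top, and is above 0 where the Brpf1-deficient channel was brighter.

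Both channels went the same way round on every array, so dye and genotype cannot be told apart. All 3 arrays lay on 1 slide and shared 1 scan time. Brpf1 encodes a scaffold protein of histone acetyltransferase complexes, and its own probe was brighter in the Brpf1-deficient channel. Its spot intensity was 12356.5, 6418 and 5168 in Cy5 and 1772.5, 2125 and 1537 in Cy3 in pairs 1, 2 and 3 (log2 ratio 2.01, 1.43 and 1.06; 2.83-fold, limma adjusted p = 0.0405, above the threshold of 0.05 under 8 of 12 other settings). Where that probe lies relative to the disrupted part of the gene was not analysed here, so each direction given here is that of the labelled channels. Of 8 marker genes of the embryo at this stage, such as T, Tbx6 and Sox2, all 8 were measured. The embryo markers had a median of 0.09, -0.06 and -0.32 in pairs 1, 2 and 3, and none passed. Of 5 decidua markers, all 5 were measured and none passed, with a median of -0.17, -0.63 and 0.43. Among them Prl8a2 had -0.74, -3.55 and 0.60, far wider than that median. Of 4 trophoblast markers, 2 were measured and neither passed: Prl3d1 ranged from -1.19 in pair 1 to 2.35 in pair 3, and Gcm1 had -0.70, 0.48 and -0.78. Of 7 visceral endoderm markers, all 7 had a mean above 0, 5 of them in all pairs, and none passed (median 0.43). Over all genes tested, 10743 of 23554 had a mean above 0. These markers were bright (median log2 intensity 16.2), and their median was 0.33 with a narrower loess curve (span 0.02). Of 6 primitive erythroid markers, 1 passed, Hbb-bh1, a globin gene (0.83, 1.58 and 1.42, limma adjusted p = 0.0419). Hbb-bh1 is among the brightest genes, with a mean log2 intensity of 17.6. Its mean of 1.28 became 0.23 (adjusted p = 0.779) with that narrower curve. Hbb-y, another globin gene, had -1.62, 1.08 and 1.83. Their part in the proteasome values was not tested.

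The proteasome is the large protease of the cytoplasm and nucleus that breaks down proteins tagged with ubiquitin. Its core particle is a barrel of alpha and beta rings, with the proteolytic sites inside, on some of the beta subunits. The regulatory particle caps the barrel, binds the ubiquitin chain, removes it and feeds the unfolded protein into the core by means of a ring of ATPases. Assembly chaperones build the rings and leave again, or are themselves degraded, and activators can take the place of the regulatory particle. Subunits are needed in fixed proportion, and the transcription factor Nfe2l1 is known to raise many of them together when proteasome activity falls short.

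That control acts through antioxidant response elements, while factors of the ETS family bind the promoters of many broadly expressed genes. The following promoters are shown because they hold a match to one of these sites. Each line gives the 100 bases before the transcription start, 5′ to 3′ on the strand of the gene, from RefSeq on build GRCm38.p6. Capitals mark the match, TGACNNNGC for the antioxidant response element and CCGGAAGT or its complement for the ETS family.
Psmb6, chr11:70525257-70525356, plus strand: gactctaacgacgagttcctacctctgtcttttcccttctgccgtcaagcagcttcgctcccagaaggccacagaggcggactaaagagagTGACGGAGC
Psmb5, chr14:54617996-54618095, minus strand: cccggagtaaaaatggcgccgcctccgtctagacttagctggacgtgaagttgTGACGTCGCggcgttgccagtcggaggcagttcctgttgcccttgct
Pomp, chr5:147860528-147860627, plus strand: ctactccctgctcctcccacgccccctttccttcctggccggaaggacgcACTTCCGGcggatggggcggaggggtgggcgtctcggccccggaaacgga
Psmd6, chr14:14120946-14121045, minus strand: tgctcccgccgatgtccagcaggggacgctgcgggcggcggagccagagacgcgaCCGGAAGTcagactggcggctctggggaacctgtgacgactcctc
The promoter table, with 250 bases before and 50 after each start, holds 41 of the 49 genes. On either strand, 6 of the 41 genes (14.6%) held the letters TGACNNNGC, against 14% of all genes in the table. The letters CCGGAAGT were held by 10 of 41 (24.4%), against 4.31% of all genes, and 5 of those 10 encode regulatory particle subunits while 1, Psma6, encodes a core subunit. A match is a description of these letters and not a measured binding site. The median log2 ratio was 0.08 over the 6 genes with the first motif and 0.05 over the 10 with the second.

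No proteasome gene passed the test. Of the 46 measured, 0 were higher and 0 lower in the Brpf1-deficient channel (limma, adjusted p below 0.05 over all genes), where 1.38% of all genes tested were called, 1.29% higher and 0.0934% lower. Of the 304 higher calls over all genes, 280 lay above a mean log2 intensity of 17, where no member lay. Between 16 and 17, 3 of 750 genes were called higher. The share over all genes is thus not that of genes as bright as the members. The smallest adjusted p was 0.141, that of Psma3. At an unadjusted p below 0.05 there were 7 members, 5 above 0 and 2 below, where 17.3% of all genes were, 8.23% above and 9.12% below. The median over the 46 genes was 0.04 and that over all genes tested was -0.02. The median of the members was 0.04, 0.06 and -0.05 in pairs 1, 2 and 3, so it did not keep its sign. Single genes lay between -0.36 and 0.39, and the SD over the members was 0.16, against 0.24 over all genes tested. The members were brighter, with a median log2 intensity of 15.54 against 10.64, so these SDs do not compare genes of like brightness.

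The intervals bound what could have been missed within these pairs. The 95% interval of the mean lay inside a 1.5-fold difference in either direction for 44 of the 46 genes, against 80.6% of all genes tested. The exceptions were Psma3 (0.18 to 0.60) and Psmb6 (0.15 to 0.63). Inside a 2-fold difference lay 46 of the 46, against 96.5% of all genes. Here too the members as a set were brighter than the genes they are set against. Without loess, with each array only centred on its median, these counts were 16 and 41. The intervals rest on the spread between the 3 pairs, moderated by limma towards that of all genes. For Psmd12 the SD over the pairs was 0.009, while its moderated SE was 0.08. A dye effect, which all pairs share, is not covered by the intervals.

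**Figure D1:**
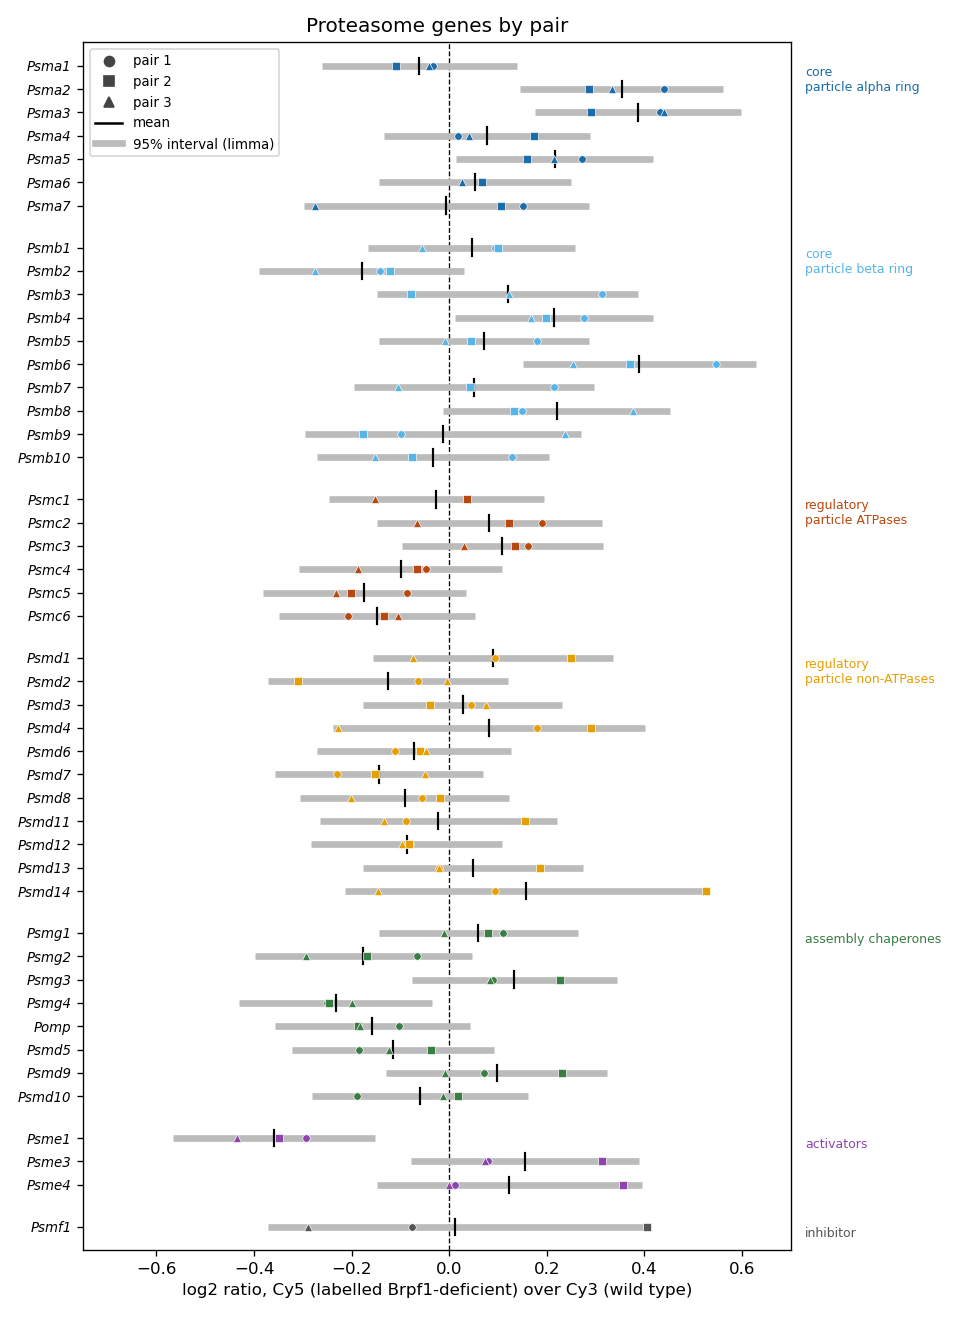
Log2 ratio of Cy5 (labelled Brpf1-deficient) over Cy3 (wild type) for the 46 measured proteasome genes, grouped by role. Symbols are pairs 1 to 3, the black tick is the mean and the grey bar its 95% interval in limma. Most bars cross 0, and Psma2, Psma3 and Psmb6 lie farthest right while Psme1 lies farthest left.

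The alpha ring forms the outer gates of the core particle. Of its 8 genes, 7 were measured, none passed, and their median was 0.08. Psma3, one of these alpha subunits, had spot intensities of 207849, 174316 and 196292 in the Brpf1-deficient channel and 57626, 81389 and 63482 in the wild-type channel. Red was brighter than green on all arrays, as it was before normalization over all genes tested (median raw log2 ratio 0.83, 0.39 and 0.74). After loess normalization Psma3 had log2 ratios of 0.43, 0.29 and 0.44 (mean 0.39 ± 0.08, SE, n = 3 pairs; limma adjusted p = 0.141). Psma2 had 0.44, 0.29 and 0.33 (mean 0.35 ± 0.08, adjusted p = 0.164). All 3 pairs were above 0 for both genes. Psma5 had a mean of 0.22, while Psma1 (-0.06), Psma4 (0.08), Psma6 (0.05) and Psma7 (-0.01) lay near 0. Psma7 was above 0 in pairs 1 and 2, at 0.15 and 0.11, and below in pair 3, at -0.27.

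The beta ring carries the proteolytic sites, on Psmb6 (caspase-like), Psmb7 (trypsin-like) and Psmb5 (chymotrypsin-like). None of these 3 genes passed. Psmb6 had the highest mean of all members, with 0.55, 0.37 and 0.25 in pairs 1, 2 and 3 (0.39 ± 0.09, SE; limma adjusted p = 0.167). Its spot intensity was 212476, 178074 and 201082 in the Brpf1-deficient channel against 54581.5, 78706 and 73155 in the wild-type channel. Psmb5 had 0.18, 0.04 and -0.01 (0.07 ± 0.08, adjusted p = 0.676). Psmb7 had 0.21, 0.04 and -0.11 (0.05 ± 0.10, adjusted p = 0.806). Only pair 3 lay below 0 for Psmb5 and for Psmb7, and the intervals of all 3 catalytic subunits overlapped. With a loess span of 0.02 the means were 0.09 for Psmb6, -0.06 for Psmb5 and 0.13 for Psmb7. Among the structural beta subunits, Psmb4 had 0.21 and Psmb3 0.12, while Psmb1 had 0.05. Psmb2 had -0.14, -0.12 and -0.27, all below 0 (mean -0.18 ± 0.08, adjusted p = 0.339).

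The immunoproteasome replaces the catalytic beta subunits with Psmb8, Psmb9 and Psmb10 in immune cells and after interferon. Psmb8 was close to background, with a spot intensity of 295, 172 and 214 in the Brpf1-deficient channel and 153, 95 and 89 in the wild-type channel. It was well above background on 2 of the 3 arrays in each channel. Its log2 ratio was 0.15, 0.13 and 0.38 (mean 0.22 ± 0.09, SE; limma adjusted p = 0.307), above 0 in every pair. Psmb9, equally dim, had -0.10, -0.18 and 0.24 (mean -0.01 ± 0.11, adjusted p = 0.959). Psmb10 was well above background on every array in both channels and had 0.13, -0.08 and -0.15 (mean -0.03 ± 0.09, adjusted p = 0.871). The replacement subunits thus had no common direction over the pairs.

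Of 13 leukocyte and interferon markers, 10 were measured and none passed, with a median of -0.24. By pair the median was -0.37, -0.08 and -0.03 in pairs 1, 2 and 3, so pair 1 lay farthest from 0. The mean was below 0 for 9 of the 10, against 12811 of all 23554 genes tested. In all pairs 3 of the 10 were below 0, against 23.8% of all genes. Their summed normalized intensity, over all 13, ranged from 20936 to 24585 in the Brpf1-deficient channel and from 21275 to 26553 in the wild-type channel, and Tap2 was not well above background in either. B2m weighs most in that sum, with a mean log2 intensity of 13.9 against a median of 9.3 over the 10 measured. Its mean log2 ratio was -0.0002, so the sum says little about the dimmer markers. In bulk RNA, fewer cells of a type and less RNA per cell cannot be told apart. The part of these cells in the Psmb8 and Psmb9 values was not tested. Psmb11, the beta subunit of the thymus, was not well above background in either channel on any array. Psma8, the alpha subunit of the testis, was well above background on 0 of 3 arrays in Cy5 and on 1 of 3 in Cy3. Neither was tested. Of 4 germ line markers, 3 were measured, all with a mean below 0, 2 of them in all pairs, and none past the threshold.

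The regulatory particle was measured for all 17 of its genes on the list, none passed, and its median was -0.03. Within its ring of ATPases, which unfold the substrate, 6 of 6 were measured, with a median of -0.06. Psmc5 had -0.09, -0.20 and -0.23 (mean -0.17 ± 0.08, SE; limma adjusted p = 0.346), and Psmc6 had -0.21, -0.13 and -0.10 (mean -0.15). Both were below 0 in all pairs. Psmc3 was on the other side, with 0.16, 0.13 and 0.03 (mean 0.11). Psmc1 (-0.03), Psmc2 (0.08) and Psmc4 (-0.10) lay between them.

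The non-ATPase subunits form the lid and base scaffold and include the ubiquitin receptors and the deubiquitinase. All 11 were measured, between -0.14 (Psmd7) and 0.16 (Psmd14), with a median of -0.02. Psmd14, which cuts the ubiquitin chain off the substrate, had 0.09, 0.53 and -0.15, a range wider than that of any other regulatory particle gene (mean 0.16 ± 0.15, SE; adjusted p = 0.594). The ubiquitin receptor Psmd4 had 0.18, 0.29 and -0.23, and the scaffold subunit Psmd1 0.09, 0.25 and -0.07. In each of these 3 genes pair 2 was the highest and pair 3 the lowest. Psmd2, the other large scaffold subunit, had -0.06, -0.31 and -0.004, with pair 2 the lowest. Psmd12 had -0.08, -0.08 and -0.10 at its brighter probe, but -0.05, 0.32 and -0.26 at its dimmer one.

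Core and regulatory particle were then set side by side on each array, since they are built separately and joined at the end. The median log2 ratio of the 17 core genes was 0.15, 0.10 and 0.04 in pairs 1, 2 and 3, and that of the 17 regulatory genes was -0.05, -0.02 and -0.10. The core median was above the regulatory median on every array, by 0.20, 0.12 and 0.14 (mean 0.15 ± 0.04, SD, n = 3 arrays). With the 14 constitutive core genes alone the differences were 0.24, 0.12 and 0.13. Of the core genes, 8 were above 0 in all pairs and 2 below in all pairs. Of the regulatory genes, 1 was above 0 in all pairs (Psmc3) and 8 were below. These counts use the brightest probe of each gene. Psmc3 and Psma4, counted above 0, were below 0 in all pairs at their dimmer probes (-0.01, -0.13 and -0.14, and -0.10, -0.07 and -0.05). So was Psmc1, counted as mixed, while Psmd12, counted below 0, was mixed at its dimmer probe. Over all genes tested, 19.7% were above 0 in all pairs and 23.8% were below. At an unadjusted p below 0.05, 5 of 17 core genes lay above 0 (Psma2, Psma3, Psma5, Psmb4 and Psmb6), against 8.23% of all genes, and 0 of 17 regulatory genes. The members are not replicates, so no test was made over them.

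**Figure D2:**
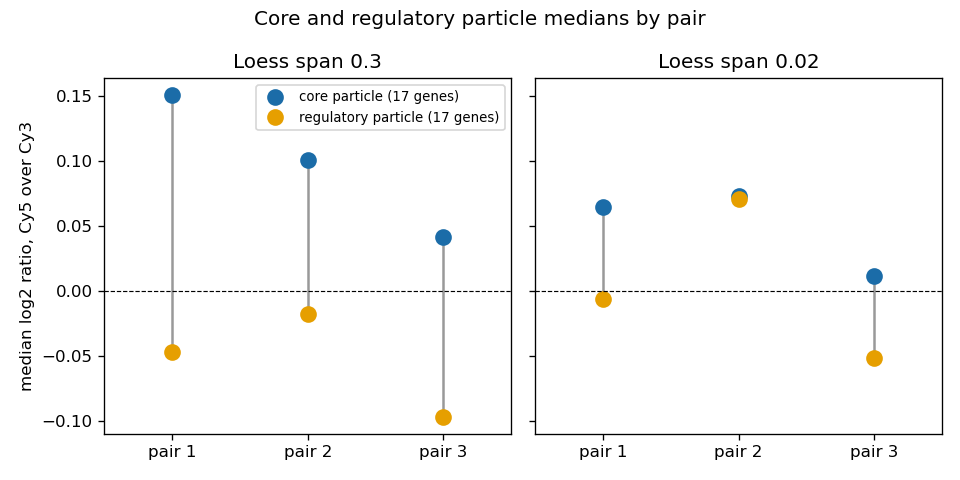
Median log2 ratio (Cy5 over Cy3) of the 17 core genes (blue) and the 17 regulatory particle genes (orange) in each pair, with loess at a span of 0.3 (left) and of 0.02 (right). The gap of 0.20, 0.12 and 0.14 on the left is 0.07, 0.002 and 0.06 on the right.

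Brightness moved with this difference. The median of the mean log2 intensity, taken over both channels, was 16.17 for the core genes and 15.65 for the regulatory genes, and 11 core but 4 regulatory genes lay between 16 and 17. On these arrays the ratio of all genes turned upward with brightness. The median over 1075 genes between 15 and 16 was -0.07, over 750 genes between 16 and 17 it was 0.11, and over 544 genes above 17 it was 0.75. Between 16 and 17, 24.5% of all genes were above 0 at an unadjusted p below 0.05, as were 5 of 15 members, which are the 5 core genes named above. Over the 43 members brighter than 12, ratio and intensity correlated at r = 0.40 (Spearman 0.42), a description over genes that share the same 3 arrays.

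A narrow loess span of 0.02 follows that trend closely and centres the ratios at each brightness, whatever their source. With it the differences between core and regulatory median were 0.07, 0.002 and 0.06 (mean 0.05 ± 0.04, SD), and the correlation over the 43 genes was 0.04. Psma3 then had 0.11, Psmb6 0.09, Psma5 -0.003 and Psmb4 0.09, while Psma2 kept 0.23. With the scanner software's processed signals the mean difference between core and regulatory median was -0.04, so its sign turned. Among the genes between 16 and 17 in brightness the core median was above the regulatory one by 0.21, 0.08 and 0.20, over 11 and 4 genes. Between 15 and 16 it was above by 0.08 and 0.07 in pairs 1 and 2 and below in pair 3 (-0.02), over 3 and 12 genes. These brightness limits were chosen after the values were seen.

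**Figure D3:**
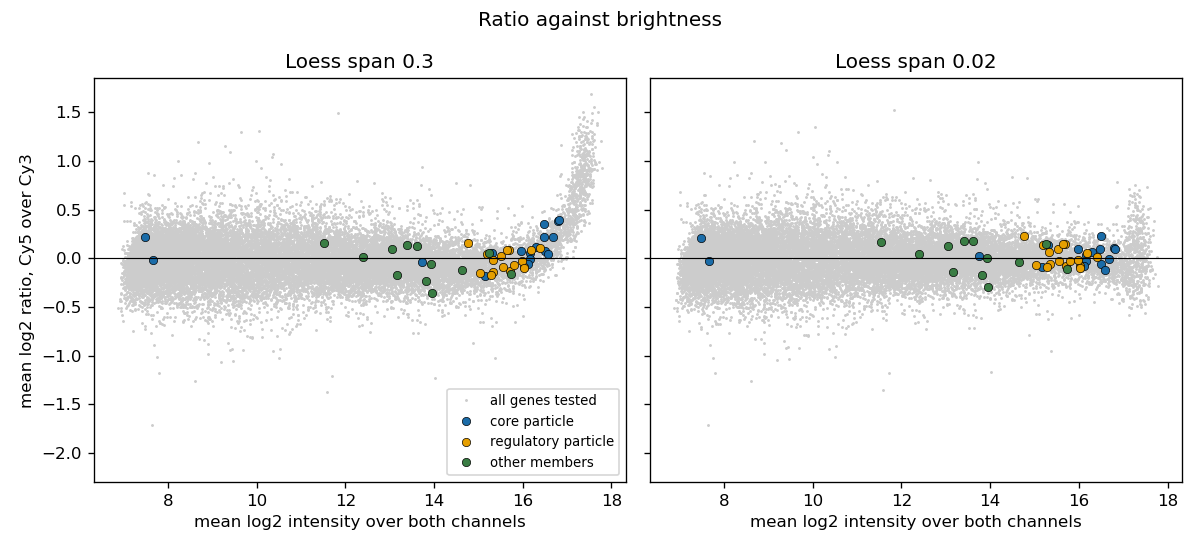
Mean log2 ratio (Cy5 over Cy3) against mean log2 intensity for all 23554 genes (grey) and the proteasome genes (coloured by particle), with loess at a span of 0.3 (left) and of 0.02 (right). On the left the brightest core genes lie on the upward turn of all genes, and on the right they lie near 0.

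A second probe was available for 11 members and gives the size of the disagreement within 1 gene. The median absolute difference between the probes of a gene was 0.13, against a median absolute mean ratio of 0.0987 over the 46 members. In 8 of 11 genes the brighter probe had the higher ratio, and in 6 of 11 the probes lay on opposite sides of 0. For Psmb5 the brighter probe had 0.07 and the dimmer -0.06. For Psmc3 the values were 0.11 and -0.09, and for Psma4 they were 0.08 and -0.07. Pomp differed most, in the other direction, with -0.16 at the brighter and 0.18 at the dimmer probe.

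**Figure D4:**
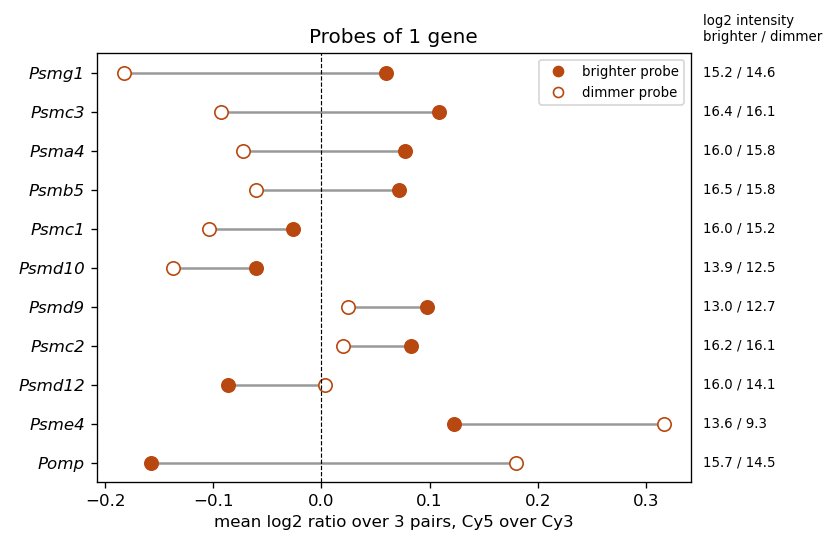
Mean log2 ratio (Cy5 over Cy3) of the brighter (filled) and the dimmer (open) probe for the 11 proteasome genes with 2 probes, with the mean log2 intensity of each probe at the right. In 6 genes the probes lie on opposite sides of the dashed line at 0.

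Assembly genes did not pass either. Psmg1 to Psmg4 encode the chaperones that pair up to build the alpha ring, Pomp the factor that guides the beta ring and is consumed as the core matures, and Psmd5, Psmd9 and Psmd10 the chaperones of the ATPase ring. All 8 were measured, with a median of -0.09, 3 above 0 and 5 below. Psmg4 had -0.25, -0.25 and -0.20 (mean -0.23 ± 0.08, SE; limma adjusted p = 0.246), and its partner Psmg3 had 0.09, 0.23 and 0.08 (mean 0.13). Psmg2 had -0.07, -0.17 and -0.29 (mean -0.18 ± 0.09, adjusted p = 0.362), and its partner Psmg1 had 0.11, 0.08 and -0.01 (mean 0.06). With the brighter Psmg1 probe, each partnership had 1 gene below 0 in all pairs and 1 above 0 in at least 2. The dimmer Psmg1 probe had -0.07, -0.20 and -0.27, so with it both Psmg1 and Psmg2 were below 0 in all pairs. Pomp had -0.10, -0.19 and -0.18 at its brighter probe (mean -0.16 ± 0.08, adjusted p = 0.365) and 0.13, 0.25 and 0.16 at its dimmer one, so its direction depended on the probe.

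Psme1 had the lowest ratio of all members. It encodes the alpha subunit of the activator that opens the core particle without ATP and is induced by interferon. Its probe was printed in 10 spots on each array, 8 or 9 of which were used. The spots averaged -0.29 ± 0.05 in pair 1, -0.35 ± 0.03 in pair 2 and -0.43 ± 0.04 in pair 3 (SD over spots), and the highest single spot was at -0.23. Every used spot was below 0. The mean was -0.36 ± 0.08 (SE, n = 3 pairs; limma adjusted p = 0.157), with a 95% interval from -0.57 to -0.15. With a loess span of 0.02 it was -0.30, and with processed signals -0.32. The spots share 1 probe and 1 RNA per channel, so their likeness does not measure the spread between embryos.

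Of the other activators, Psme2, the partner of Psme1, was not analysed here. Psme3, the activator of the nucleus, had 0.08, 0.31 and 0.07 (mean 0.16 ± 0.09, SE; limma adjusted p = 0.425). Psme4, a single-chain activator also of the nucleus, had 0.01, 0.36 and 0.0005 (mean 0.12 ± 0.11, adjusted p = 0.57). In both, pair 2 stood above the others. The inhibitor Psmf1 had -0.08, 0.40 and -0.29, a wider range than any other member (mean 0.01 ± 0.15, adjusted p = 0.971).

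Partners of the proteasome were read from a list of 29 genes, 28 of them measured. Of these, 3 passed as higher in the Brpf1-deficient channel and 0 as lower, where 1.29% of all genes tested passed as higher and 0.0934% as lower. Among those that passed, Rps27a, which encodes ubiquitin fused to a ribosomal protein, had 1.11, 0.80 and 0.95 (mean 0.95 ± 0.09, SE; limma adjusted p = 0.0278). Ubb, a polyubiquitin gene, had 0.99, 1.08 and 0.83 (mean 0.96 ± 0.09, adjusted p = 0.0256). Both Rps27a and Ubb lay above a mean log2 intensity of 17, where the median over all genes was 0.75. With a loess span of 0.02 Rps27a had 0.06 (adjusted p = 0.773) and Ubb had -0.12 (adjusted p = 0.569), and 0 genes in all passed by limma, with 3508 at an unadjusted p below 0.05.

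Other partners did not pass. Sem1, a small lid subunit whose symbol lies outside the naming rule, had 0.50, 0.16 and 0.46 (mean 0.37 ± 0.10, SE; limma adjusted p = 0.202) and -0.09 with a span of 0.02. Adrm1, also listed with the regulatory particle and outside the rule, had -0.13, -0.41 and -0.37 (mean -0.30 ± 0.09, limma adjusted p = 0.227). With a span of 0.02 Adrm1 had -0.24. Of the 7 measured partners listed with that particle, 5 had a mean above 0 and 2 below. Nfe2l1, the factor that raises subunit genes, had 0.23, 0.79 and -0.18 (mean 0.28 ± 0.19, adjusted p = 0.483), with its pairs on both sides of 0. The median was -0.03 over 6 genes of transcriptional regulation, -0.11 over 6 shuttle factors and 0.02 over 3 genes of the Vcp segregase.

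The authors' deposited table lists 37 of the 59 member probes, for 34 genes. Its ratio runs as Cy3 over Cy5, since it correlated at -0.802 with the ratios computed here over 39908 shared probes. The signs printed here are therefore opposite to that table. Turned to Cy5 over Cy3, the authors' deposited table has Psma3 at 0.36, Psma2 at 0.33, Psmb6 at 0.36 and Psme1 at -0.38. For Psmb8 the authors' deposited table has 0.74 when turned, against 0.22 here. The smallest adjusted p of a member probe in the authors' deposited table was 0.413, that of Psme1.

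The ratios of the members were alike between pairs to a limited degree. Over the 46 genes they correlated at 0.61 between pairs 1 and 2, at 0.64 between pairs 1 and 3 and at 0.37 between pairs 2 and 3. Over all genes tested the same correlations were 0.41, 0.33 and 0.15. With a span of 0.02 those of the members were 0.57, 0.34 and 0.15. These are correlations across genes, which are not independent, and all pairs share dye orientation and probes.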

How the data were processed

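Each labelling began with 350 ng of total RNA, amplified before dye coupling, per the labels' protocols. Feature Extraction 10.7.3.1 produced the spot values, per the file headers. Intensity here means a spot's deposited median signal, with the median of its surrounding background, both linear. That software's processed signals, already corrected for background and dye, served as an alternative. The authors' deposited table holds log2 ratios, mean log2 intensities, p-values, and as scores the moderated t and the log odds. The submitters' processing notes name limma, with settings not given in the sources used here.

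Median signals were used because the files used here hold no mean signals. After normexp background correction (offset 50), each array was normalized by loess (span 0.3). Control spots and outliers had weight 0 in that curve, outliers were then dropped, and the spots of a probe were averaged. Probes well above background in 1 channel on at least 2 arrays, by at least 0.5 of their spots, were kept (31598 of 55681), and the brightest probe stood for a gene. Of 29123 probes with a RefSeq accession, 27656 matched 1 gene of GRCm38.p6. The mean ratio over 3 pairs was tested against 0 with limma 3.58.1 in R 4.3.3 (two-sided, Benjamini-Hochberg over 23554 genes, threshold 0.05). The test was checked on simulated independent ratios with known changes. These held no dye effect and no brightness trend, so that check cannot speak to either. Errors marked SE are moderated standard errors. The labels do not say how embryos were pooled, so p-values measure the spread between these 3 pairs.

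Members, gene lists and alternatives were chosen with earlier results of these data known. Values are given for every member called, the 4 highest and 4 lowest, the catalytic and tissue-restricted subunits, Pomp and the activators, and for partners by smallest p, of which some are not reported here. Members of other groups, Nfe2l1, Adrm1 and the genes shown by promoter were chosen after their values were seen. The number of arrays limits the precision.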

Additional observations from a re-analysis of the deposited data

How the results depend on the processing

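The test is itself paired, because each array sets both RNAs of a pair against each other and the ratio holds the pairing. No further pairing term was fitted. Against 0 members called higher, 2 (Psma3 and Psmb6) were called with median centring in place of loess, and 0 under the other 11 alternatives; 0 were called lower under all 12. Median centring moved the median of the members to 0.26, processed signals to -0.044, and omission of 1 pair to between -0.02 and 0.09. The core minus regulatory difference was 0.046 with a loess span of 0.02, 0.22 with median centring, -0.041 with processed signals and 0.13 to 0.17 without 1 pair. Over all genes, 304 higher and 22 lower calls became 626 and 25 with median centring, 112 and 3 with an offset of 10, and 196 and 5 with the mean of all probes of a gene. They became 0 and 0 with a span of 0.02 (limma, 3508 genes at an unadjusted p below 0.05), with processed signals (3454), without genes above an intensity of 17 (3573) and without any 1 pair (2145 to 3832). Brpf1 kept its sign in all 12 alternatives, at 1.25 to 1.72, and its adjusted p, 0.0145 to 0.273, was above 0.05 in 8.

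Of 178 values of single members under an alternative, 162 kept their sign, and no value that turned was past the threshold. These values cover the highest and lowest members, the measured catalytic and tissue-restricted subunits, Pomp and the activators. The rest of the 46 members were not followed gene by gene, so the count does not speak for the whole set. With median centring Pomp had 0.15, Psmb2 0.032 and Psmb9 0.0038. With processed signals Psma2 had -0.00028, Psma3 -0.061, Psmb5 -0.28, Psmb9 0.083 and Psmb10 0.030. With a span of 0.02 Psmb5 had -0.060 and Psmb10 0.026. Pomp had 0.012 as the mean of its probes, and Psmb9 had 0.018 without background correction. Omission of 1 pair put Psmb7 between -0.031 and 0.13, Psmb9 between -0.14 and 0.069 (0.030 without pair 1) and Psmb10 between -0.11 and 0.026. The cause of these turns was not tested. Signal over background limits Psmb8, Psmb9, Psmb11 and Psma8.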
